A study of Rattus norvegicus with 12 samples.

Results

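The amyloid precursor family, its sorting receptor and its secretases were followed here through the 7 genes Sorl1, App, Aplp1, Aplp2, Psen2, Bace1 and Apoe. Every probe set whose platform annotation gives 1 of these symbols alone was taken, which gave 15 probe sets of the 15923 in the table. Sorl1 had 6 of them, App, Aplp2 and Apoe had 2 each, and Aplp1, Psen2 and Bace1 had 1 each. Sorl1 was chosen by its several probe sets differing in the same direction between the same groups that are compared below, so its differences are given as a description and carry no test. RNA came from the microdissected CA1 field of young male Long-Evans rats aged 3 to 4 months, hybridised to Affymetrix RAE230A arrays at 1 array per sample, 12 arrays in all. All rats had earlier learned a standard water maze, rested for 2 to 3 weeks, and then swam 8 trials at intervals of 8 minutes in another maze. For the 6 rats of the spatial learning group, labelled learning activated, the visible platform kept its place among orienting cues, and for the 6 rats of the control task group the visible platform moved between trials and no cue told direction. Both groups swam a probe trial of 90 seconds with no platform 1 hour later and were killed straight afterwards. The comparison asks whether transcript levels differ when a place could be learned, and each difference given, in log2 units, is the spatial learning value less the control task value.

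App encodes the amyloid precursor protein, a membrane protein of neurons and glia, and Aplp1 and Aplp2 encode its amyloid precursor-like relatives, which lack the amyloid beta stretch. An alpha-secretase cut sheds the outer part of the protein, while the beta-secretase encoded by Bace1, followed by gamma-secretase, of which Psen2 encodes a catalytic subunit, presenilin 2, releases amyloid beta. SORL1 is a sorting receptor of the VPS10 family that binds the precursor protein in endosomes and, with the retromer, returns it to the Golgi, away from the compartments where it is cut. Apolipoprotein E, encoded by Apoe, is secreted mainly by astrocytes in the brain, carries lipid to neurons and binds amyloid beta. In the hippocampus these proteins are known from synapse formation and function and from Alzheimer's disease.

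The promoters of Sorl1 and App are shown side by side. The probe sets of both genes had higher means after spatial learning, by 0.02 and 0.07 for App. Sorl1 carries no test, and neither App probe set passed, so the pair does not set a changed gene against an unchanged one. These are RefSeq sequences of the GRCr8 build, 250 bases up to the annotated start, at chr8:51401248-51401497 for Sorl1 and chr11:37722839-37723088 for App, both on the minus strand. Capitals mark matches to the motifs searched on both strands. The cAMP response element was searched as TGACGTCA and its shorter core as TGACG. The E-box was searched as CACGTG, and for the GC box the letters were GGGCGG. The TATA box was searched as TATAAA and the AP-1 site as TGANTCA, where N is any base. Any 2 motifs may overlap.
Sorl1: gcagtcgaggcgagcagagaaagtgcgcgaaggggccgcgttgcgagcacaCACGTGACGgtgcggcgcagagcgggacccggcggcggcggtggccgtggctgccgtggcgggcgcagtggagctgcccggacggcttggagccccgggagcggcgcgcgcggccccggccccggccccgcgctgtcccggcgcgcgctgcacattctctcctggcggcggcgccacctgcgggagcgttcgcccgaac
App: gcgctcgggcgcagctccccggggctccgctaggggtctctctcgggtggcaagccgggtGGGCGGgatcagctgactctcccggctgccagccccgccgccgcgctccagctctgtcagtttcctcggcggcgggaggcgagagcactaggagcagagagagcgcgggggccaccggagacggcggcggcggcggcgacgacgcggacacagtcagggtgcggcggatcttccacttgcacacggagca
The Sorl1 window held 1 E-box, from -199 to -194 relative to the start, overlapping 1 TGACG core from -195 to -191. The App window held neither and had 1 GC box from -190 to -185. Among 33469 RefSeq promoter windows of 300 bases, 6.42% held the E-box, 21.2% the TGACG core and 33.1% the GC box. Over the full windows of 300 bases, Sorl1 had 46 CG dinucleotides, App 35, Aplp1 32 and Aplp2 28, against a median of 7 over all windows. Psen2 had 10 and Bace1 5, and the 3 windows listed for Apoe had 3, 10 and 12. The full cAMP response element, held by 1.83% of all windows, the TATA box, held by 14.2%, and the AP-1 site, held by 7.33%, were in 0 of the 9 windows of the members. The GC box occurred 3 times in the window of Aplp1, 5 times in that of Aplp2 and 2 times in each of 2 Apoe windows, which overlap. Psen2 held 1 TGACG core. A match of letters is a description and not a measured binding site.

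The values are the authors' GCRMA levels on a log2 scale, and a level of 1 probe set says nothing of its height relative to another. Of the 15 member probe sets, 13 had a mean of at least 4 over all arrays and were among the 9610 tested. Bace1, with a mean of 4.14, lay just inside this limit, while Psen2, with a mean of 3.63, and the dimmest Sorl1 probe set, 1386268_at, with a mean of 3.08, lay outside it. Over all tested probe sets, 0 passed an adjusted p of 0.05 (0%) by limma and 0 (0%) by the exact rank-sum test. With 6 arrays per group, groups that do not overlap give the rank-sum test its smallest p. The exact rank-sum adjusted p of these was 0.341, so this test could hardly call single probe sets. An unadjusted p under 0.05 was reached by 1048 probe sets (10.9%) with limma and by 896 (9.32%) with the rank-sum test. All 5 CA1 markers with a probe set were well represented, Wfs1 at 11.91 to 12.45 in spatial learning and 11.60 to 12.20 in control task arrays. In markers of the choroid plexus and meninges, control task replicate 3 stood highest for the choroid plexus, and spatial learning replicate 6 and control task replicate 6 were high for the meninges. The CA3 and dentate gyrus lists are given further below. The 3 prime probe sets of hexokinase, a control for RNA integrity, exceeded the 5 prime ones by 1.55 to 1.82 in the spatial learning arrays and 1.35 to 1.55 in the control task arrays. Their part in the values below was not tested beyond the fits without these 3 arrays and with the hexokinase gap as a covariate. In 5 of 6 spatial learning arrays the hexokinase gap lay above the highest control. The gap and the group thus largely go together, and the covariate fits cannot tell them apart.

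All 6 Sorl1 probe sets had a higher mean in the spatial learning group, by 0.05 to 0.26 on the log2 scale. The mean of the 5 tested ones per array was 8.91 ± 0.11 in spatial learning and 8.75 ± 0.11 in control task arrays (log2, mean ± SD, n = 6 each), a difference of 0.17. It ran from 8.70 to 9.02 after spatial learning and from 8.53 to 8.82 after the control task. Of the spatial learning arrays, 5 lay above the highest control array, and replicate 6 lay below 5 of the 6 controls. The brightest Sorl1 probe set, 1377457_a_at, whose suffix marks probes shared by several transcripts of a gene, ran from 11.20 through a median of 11.47 to 11.60 after spatial learning, against 11.13, 11.31 and 11.42 after the control task. Its difference was 0.15, with 4 of 6 spatial learning arrays above every control. The groups still overlapped.

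The widest Sorl1 difference was that of 1390710_x_at, at 9.49 to 9.98 with a median of 9.78 after spatial learning, against 9.29 to 9.64 with a median of 9.52 after the control task, a difference of 0.26. Probe sets with this suffix may contain probes that also match other transcripts. For 1377458_at the spatial learning arrays ran from 7.05 to 7.49 (median 7.34) and the control task arrays from 6.63 to 7.34 (median 7.18), a difference of 0.23. The smallest difference of a tested Sorl1 probe set, 0.08, was that of 1393933_at, at 10.42 to 10.75 (median 10.71) after spatial learning, against 10.47 to 10.68 (median 10.58) after the control task. In these 3 the groups overlapped, with 3 or 4 of 6 spatial learning arrays above every control. The dim probe set 1386269_x_at was the exception, with spatial learning arrays at 5.33 to 5.54 and control task arrays at 5.11 to 5.32, a difference of 0.12 with no overlap. The dimmest, 1386268_at, was at 3.08 to 3.15 after spatial learning and 2.95 to 3.09 after the control task, a difference of 0.05. Over all tested probe sets 61 (0.635%) had groups that did not overlap, 35 of them (0.364%) higher after spatial learning. Since this contrast chose Sorl1, nothing is read from that count.

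**Figure D1:**
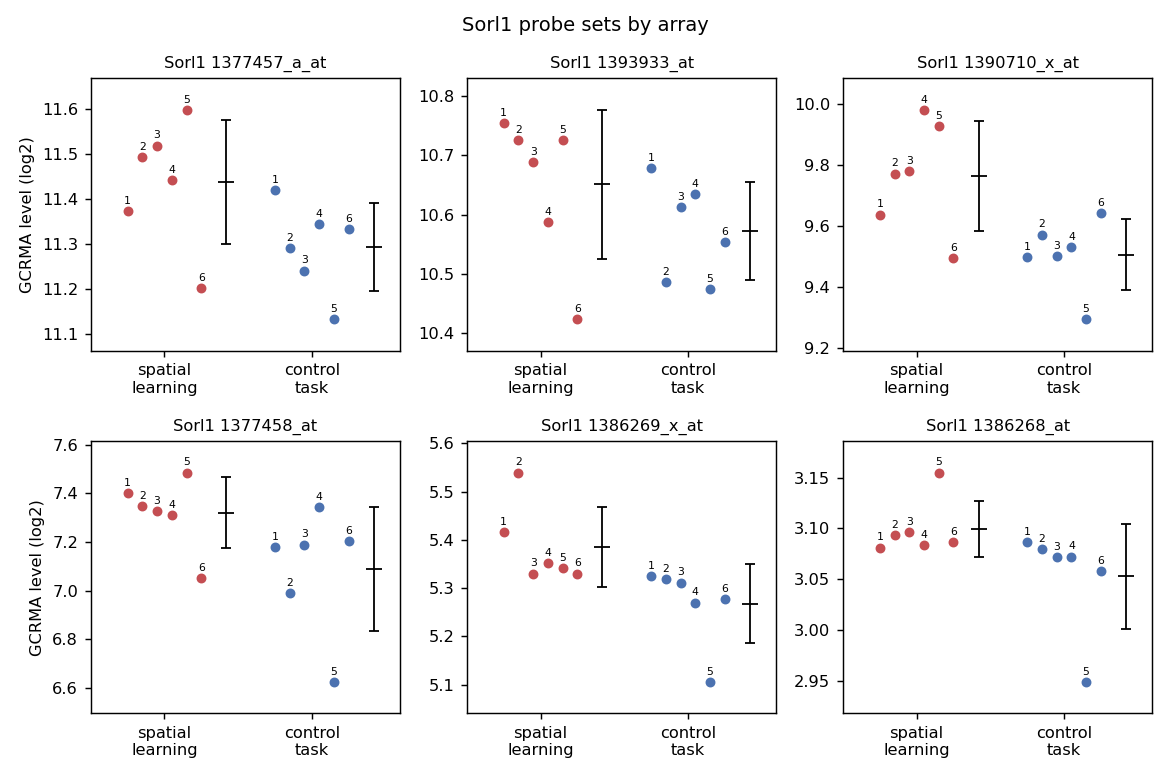
GCRMA level (log2, vertical axes that differ between panels) of the 6 Sorl1 probe sets on every array, spatial learning in red and control task in blue, points numbered by replicate, with the mean and 1 SD in black beside each group. Control task replicate 5 is the lowest control in all 6 panels, and spatial learning replicate 6 is the lowest of its group in 4.

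Among animals of the same group the Sorl1 probe sets correlated with each other. With group means removed, the correlation over the 12 arrays between pairs of the 5 tested Sorl1 probe sets ran from 0.28 to 0.77 with a median of 0.60 over 10 pairs. Over the 1408 pairs of tested probe sets that share a gene, the median was 0.20. Sorl1 was chosen because its probe sets agree, which favours high values here, so these are a description and no support for that agreement. The pairs are not independent, as 3 of these 5 probe sets were built from the same sequence entry and all share the same 12 arrays. Control task replicate 5 was the lowest control for all 6 Sorl1 probe sets, and spatial learning replicate 6 the lowest of its group for 4. The correlations were not computed without these arrays, and how far they rest on them was not tested. Without control task replicate 5 the mean Sorl1 difference was 0.12 and that of 1377458_at 0.14, against 0.23 with it, and without spatial learning replicate 6 the mean difference was 0.21. Without the 3 arrays high in choroid plexus or meningeal markers the mean difference was 0.23, and with the hexokinase gap as a covariate 0.18. For 1386269_x_at, whose groups did not overlap, the difference was 0.04 with that covariate.

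Of 8 genes with exactly 5 tested probe sets, 4 differed in 1 direction throughout. Sorl1 and Tpm1, a tropomyosin of the actin cytoskeleton, were higher in all 5 (Tpm1 by 0.07 to 0.26), and Marcks, an actin-binding substrate of protein kinase C, and Myh1, a myosin heavy chain, were lower in all 5. The list of CA1 markers stood higher after spatial learning as well, its mean per array being 10.44 to 10.86 in the spatial learning group and 10.34 to 10.66 in the control task group, a difference of 0.22 over 5 of 8 markers with a probe set. The CA3 list, with 4 of 8 markers having a probe set, differed by 0.03. In it Bok was at 8.97 to 9.18 after spatial learning and 8.40 to 8.86 after the control task, while Nnat differed by -0.34. The dentate gyrus list, 8 of 9 with a probe set, differed by -0.11, from -0.32 for Stxbp6 to 0.07 for Calb1. In tissue pieces, more cells of a type and more RNA per cell cannot be told apart. The part of CA1, CA3 or dentate gyrus content in the Sorl1 difference was not tested.

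Neither App probe set passed the test. Its brighter probe set, 1371571_at, ran from 12.68 through a median of 12.73 to 12.80 after spatial learning, against 12.61, 12.74 and 12.77 after the control task. The difference was 0.02 (SE 0.03, limma adjusted p = 0.864), with a 95% interval from -0.05 to 0.10. The groups overlapped, with 2 spatial learning arrays above every control and 2 control arrays below every spatial learning array. The other App probe set, 1371572_at, was at 11.68 to 11.85 (median 11.81) after spatial learning and 11.60 to 11.86 (median 11.71) after the control task, a difference of 0.07 (SE 0.04, limma adjusted p = 0.557). In it 5 of the 6 spatial learning arrays lay above the control median.

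Aplp1, the neuronal member of the precursor family, ran from 11.61 through a median of 11.91 to 11.97 after spatial learning and from 11.80 through 11.88 to 11.95 after the control task. Its difference was -0.04 (SE 0.06, limma adjusted p = 0.845), with a 95% interval from -0.18 to 0.10. Spatial learning replicates 3 and 5 lay apart below all controls, 1 spatial learning array lay above all controls, and the other 3 lay among them. Without spatial learning replicate 3 the difference was 0.0011.

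The Aplp2 probe sets disagreed. The brighter one, 1388121_at, was at 11.13 to 11.47 (median 11.34) after spatial learning and 11.21 to 11.38 (median 11.31) after the control task, a difference of 0.0033 (SE 0.06, limma adjusted p = 0.990). The dimmer one, 1383096_at, ran from 7.02 through 7.12 to 7.31 after spatial learning and from 7.19 through 7.38 to 8.09 after the control task. Its difference of -0.31 (SE 0.13, unadjusted p = 0.0311) did not pass the limma test (limma adjusted p = 0.434), and 4 of 6 spatial learning arrays lay below every control. Control task replicate 4 supplied the highest value of 8.09, and without it the difference was -0.18. The gap between the dimmer and the brighter probe set was compared between groups for each of the 3 genes with 2 tested probe sets, a comparison added after the values were seen. For Aplp2 it was -4.17 ± 0.10 after spatial learning and -3.85 ± 0.35 after the control task (log2, mean ± SD, n = 6 each), a change of -0.31 (2-sided exact permutation p = 0.0130, 0.0390 adjusted over the 3 genes). That call was lost in 9 of the 12 fits that each left out 1 array, and in the fit without the 3 arrays high in choroid plexus or meningeal markers (-0.39, exact permutation adjusted p = 0.190). The App gap changed by 0.05 (exact permutation p = 0.279) and the Apoe gap by 0.08 (exact permutation p = 0.108). Without control task replicate 4 the App gap changed by 0.09 (exact permutation p = 0.00433, adjusted 0.0130), a call made in no other fit of the App gap.

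Among the secretases, Bace1 was measured by 1 dim probe set. It ran from 3.85 through a median of 4.06 to 4.12 after spatial learning and from 4.00 through 4.10 to 5.16 after the control task. Its difference was -0.26 (SE 0.16, limma adjusted p = 0.590). The value of 5.16 belonged to control task replicate 4, the next control stood at 4.15, and without that array the difference was -0.08. Psen2 lay below the level limit and was not tested. Its 1 probe set was at 3.30 to 3.71 (median 3.66) after spatial learning and 3.47 to 3.73 (median 3.68) after the control task, and 1 array in each group, spatial learning replicate 5 and control task replicate 2, lay below the rest.

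Neither Apoe probe set passed the test. The bright probe set, 1370862_at, ran from 13.12 through 13.28 to 13.38 after spatial learning and from 13.14 through 13.26 to 13.29 after the control task. Its difference was 0.02 (SE 0.04, limma adjusted p = 0.873), with a 95% interval from -0.07 to 0.12. The probe set 1371288_at, built from the same sequence entry and far dimmer, was at 4.73 to 4.93 (median 4.77) after spatial learning and 4.55 to 4.75 (median 4.71) after the control task. This difference of 0.11 (SE 0.05, unadjusted p = 0.0452) did not pass (limma adjusted p = 0.447), and 4 of 6 spatial learning arrays lay above every control. The astrocyte list, 13 of 14 genes with a probe set and all of these above the level limit, averaged 10.39 to 10.54 per array after spatial learning and 10.50 to 10.63 after the control task. The microglia list, with Cd68 and Cx3cr1 below the limit of 4, averaged 5.85 to 6.15 after spatial learning and 5.93 to 6.28 after the control task. Both cell types make Apoe, and the part of these cells in the Apoe values was not tested. Without the 3 arrays high in choroid plexus or meningeal markers 0 member probe sets outside Sorl1 passed.

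**Figure D2:**
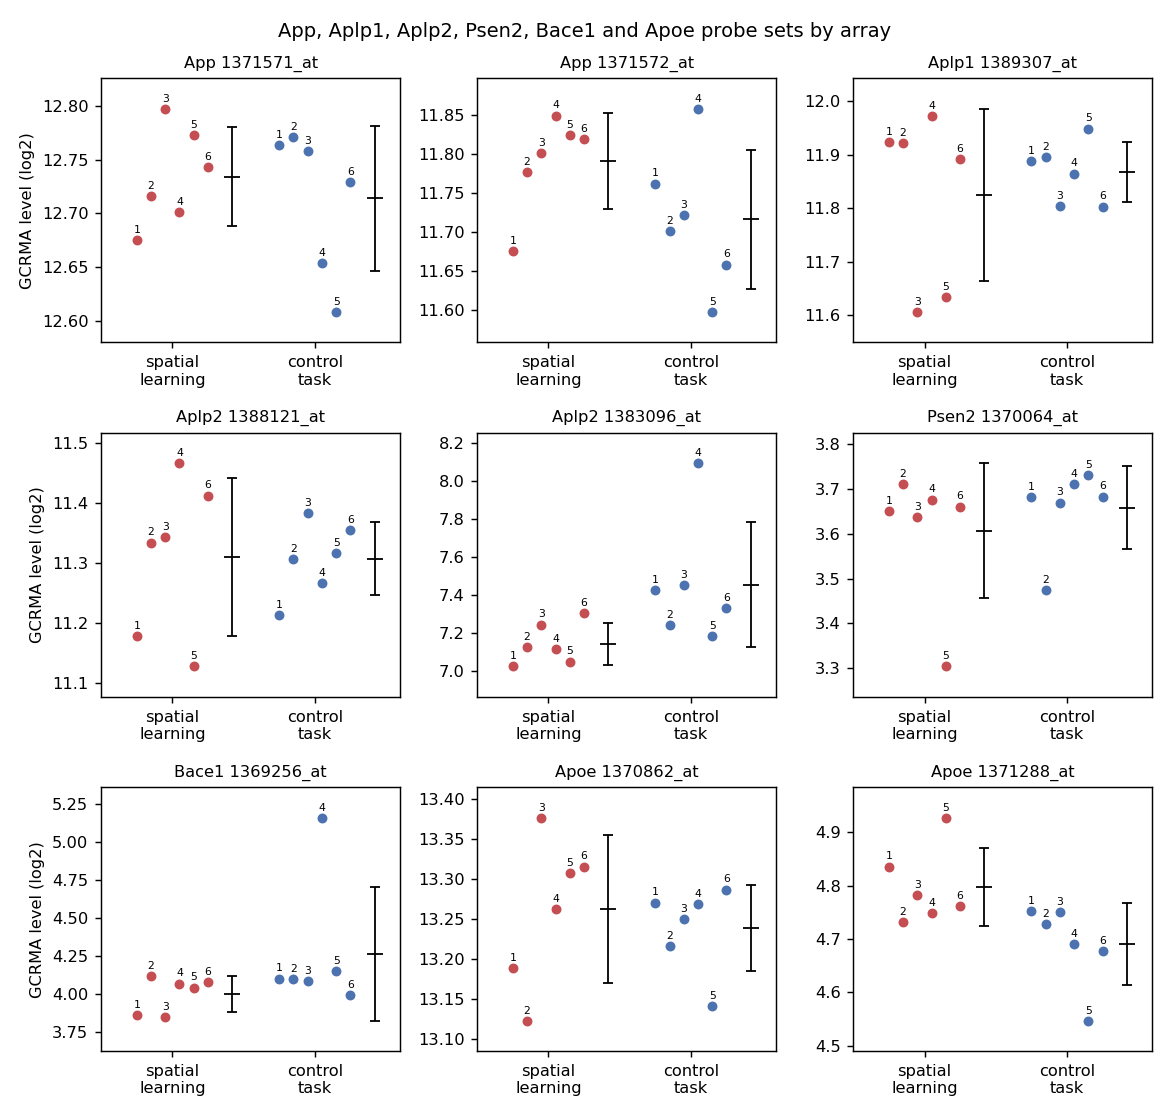
GCRMA level (log2, vertical axes that differ between panels) of the 9 probe sets of App, Aplp1, Aplp2, Psen2, Bace1 and Apoe on every array, spatial learning in red and control task in blue, points numbered by replicate, with the mean and 1 SD in black. Control task replicate 4 stands alone at 5.16 for Bace1 and at 8.09 for Aplp2 1383096_at.

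Outside Sorl1, 8 member probe sets were tested, and 0 passed over all probe sets against 0% of the table. An unadjusted p under 0.05 was reached by 2 of the 8, Apoe 1371288_at on the higher side and Aplp2 1383096_at on the lower side, where 6.36% of all tested probe sets did so on the higher and 4.55% on the lower side. Both are the dimmer probe set of their gene, and the brighter one differed by 0.02 for Apoe and by 0.0033 for Aplp2. The groups overlapped in all 8. The difference was above 0 in 5 of the 8 and in 53.7% of all tested probe sets, with a median of 0.01 among the 8 and 0.0079 among all.

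**Figure D3:**
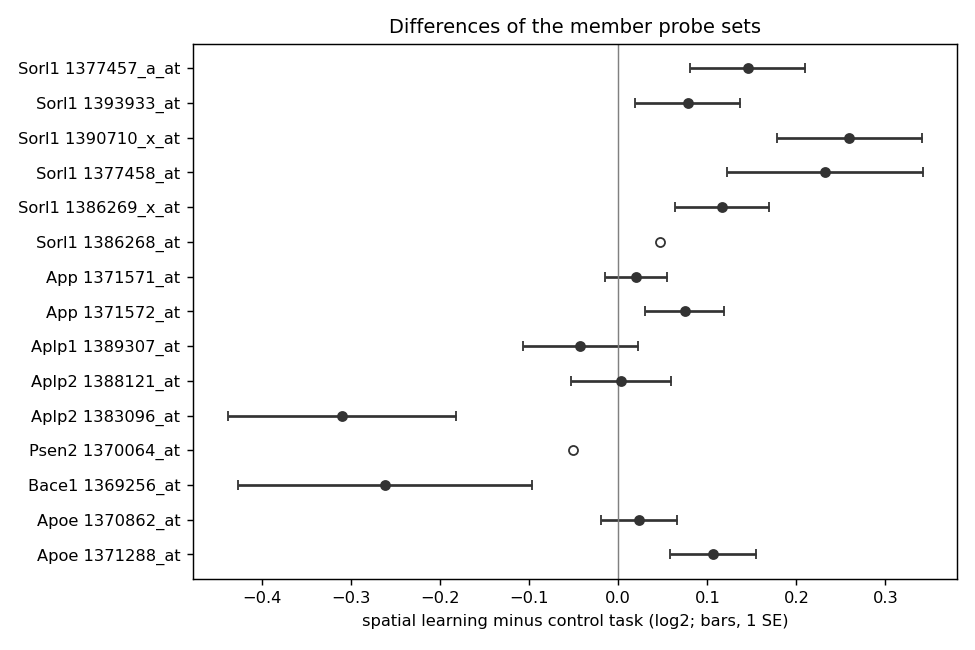
Difference, spatial learning minus control task (log2), of the 15 member probe sets, with bars of 1 SE for the 13 tested ones and open circles for the 2 too dim to be tested. The 6 Sorl1 probe sets lie between 0.05 and 0.26, and the widest differences below 0 are -0.31 for Aplp2 1383096_at and -0.26 for Bace1.

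Within groups, with group means removed, the 87 pairs of probe sets of different members correlated at -0.70 to 0.87, with a median of 0.10. The correlations of the tested Sorl1 probe sets with those of the other members ran from -0.63 to 0.68 with a median of 0.11 over 40 pairs. App 1371572_at and Aplp2 1383096_at correlated at 0.78, and at 0.60 without control task replicate 4. Psen2 and Apoe 1371288_at ran opposite to each other at -0.70, as did Aplp1 and the bright Apoe probe set at -0.68. The App probe sets correlated at 0.27 with each other, and at 0.71 without control task replicate 4. Bace1 and Aplp2 1383096_at correlated at 0.86, but at -0.04 without control task replicate 4, which was high in both. The dim probe sets Sorl1 1386268_at and Apoe 1371288_at correlated at 0.87, and at 0.89 without control task replicate 4, which was extreme in neither. In both, control task replicate 5 was the lowest control (2.95 and 4.55). Spatial learning replicate 5 was the highest of its group in both (3.15 and 4.93). The correlation without these arrays was not computed, and their part in it was not tested. Each value rests on the same 12 arrays and is a description.

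**Figure D4:**
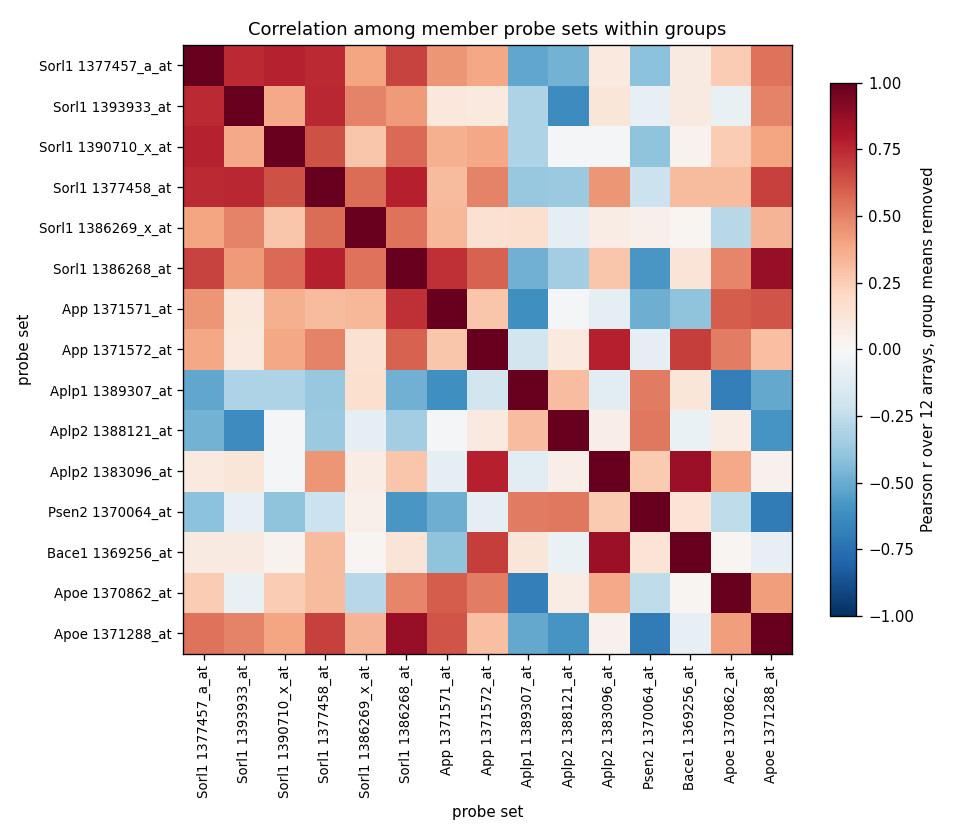
Pearson correlation over the 12 arrays with group means removed (colour scale from -1 to 1) between all pairs of the 15 member probe sets. The 6 Sorl1 probe sets form a block of positive values, and Bace1 pairs with Aplp2 1383096_at at 0.86 through control task replicate 4.

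Genes whose levels followed each member most closely were sought among the other 6866 named genes with a probe set above the limit (6867 for Psen2), by the correlation over the 12 arrays with group means removed. For the Sorl1 mean they were Rasgef1b, a guanine nucleotide exchange factor, at 0.87, Gnpda2, a glucosamine phosphate deaminase, at 0.87, and Slc30a3, the zinc transporter of synaptic vesicles, at 0.85. For App they were Dnajc1 at 0.88, the RNA helicase gene Ddx3x at 0.86 and Fez2 at 0.84. For Aplp1 they were Tmem178a at 0.93, Vamp2, the vesicle SNARE synaptobrevin, at 0.90 and Smim7 at 0.89. The brighter Aplp2 probe set was followed by the syndecan gene Sdc4 at 0.89, Hint3 at 0.86 and Dync2h1 at 0.85. The bright Apoe probe set was followed by Spcs1, of the signal peptidase, at 0.88, Pdgfra, the receptor of oligodendrocyte precursors, at 0.83 and Nop58 at 0.82. Psen2, below the limit, was followed by Plxna3 at 0.94, Atxn1l at 0.90 and Map2 at 0.90. Spatial learning replicate 5 and control task replicate 2 lay apart for Psen2. For the Sorl1 mean, spatial learning replicate 6 and control task replicate 5 did so. The part of these arrays in the correlations was not tested. For Bace1 they were Jdp2 at 0.94, Arpc4 at 0.94 and Mif4gd at 0.93, and in each of them control task replicate 4 stood above all other controls, in Arpc4 at 6.19 against at most 5.21. Being the highest of so many correlations over 12 arrays, these values are high by selection.

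The wider pathway was followed through 121 other genes in 10 lists, of which 101 had a probe set and 81 were tested through the brightest one. Of these, 0 passed (limma, over all probe sets; 0% of the 6867 named genes did), while 45 stood higher and 36 lower, the median difference being 0.01. By the same choice of probe set 55.6% of all named genes were higher, also with a median of 0.01. An unadjusted p under 0.05 was reached by 7 of 81 (8.64%), 5 higher and 2 lower, against 10% of the named genes.

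The alpha-secretase genes, of the ADAM metalloproteases, stood higher in 3 of 3 tested genes with 0 past the threshold, where 55.6% of all named genes were higher. Adam10, the main alpha-secretase of neurons, stood at 6.32 ± 0.12 after spatial learning and 6.17 ± 0.25 after the control task (log2, mean ± SD, n = 6 each), a difference of 0.16 (SE 0.10, limma adjusted p = 0.609), and Adam19 differed by 0.03. The Adam10 difference was 0.06 without control task replicate 6 and 0.03 without the 3 arrays high in choroid plexus or meningeal markers, and that of Adam19 was 0.0054 without spatial learning replicate 2 and 0.0062 without control task replicate 2. Of 8 tested genes that act on beta-secretase, 6 were higher, with Gga3, which sorts BACE1 to lysosomes, at 0.11 and Rtn3, a reticulon that binds BACE1, at -0.07 on its brightest and -0.05 on its other 2 probe sets. The gamma-secretase list, of which 4 of 7 genes were tested, was lower in all 4, with a median of -0.10 and 0 past the threshold. Its scaffold subunit gene Aph1a stood at 7.11 ± 0.08 after spatial learning and 7.33 ± 0.26 after the control task (log2, mean ± SD, n = 6 each), a difference of -0.22 (SE 0.10, limma adjusted p = 0.458), which was -0.14 without control task replicate 4. Ncstn, encoding nicastrin, differed by -0.09, Tmed10 by -0.11 and Psenen by -0.02.

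Among 16 tested adaptors and partners of the precursor protein, 10 were higher and 6 lower, and 4 (3 higher, 1 lower) had an unadjusted p under 0.05, 25% of this list against 10% of all named genes. Itm2c, of the BRI family of membrane proteins that bind the precursor protein, came closest to passing, at 12.38 ± 0.06 after spatial learning and 12.17 ± 0.11 after the control task (log2, mean ± SD, n = 6 each), which makes a difference of 0.21 (SE 0.05, limma adjusted p = 0.245). Over the alternatives run, its limma adjusted p ran from 0.0711, without control task replicate 6, to 0.774, with the hexokinase gap as a covariate. Kat5, the acetyltransferase Tip60, followed at 0.14. In the VPS10 receptor and retromer list, to which SORL1 belongs by function, 7 of 10 were higher with a median of 0.03. Sort1, encoding sortilin, differed by 0.13 on its brightest probe set and by -0.21 on the other, and Sorcs2 by -0.14. The retromer core genes Vps35, Vps29 and Vps26a differed by 0.0053, 0.04 and 0.08, none past the threshold, and the other Vps26a probe set by 0.25.

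Apolipoprotein E receptors and lipid carriers were higher in 6 and lower in 5 of 11 tested genes. The endocytic receptor gene Lrp1 stood at 0.09 (SE 0.05, limma adjusted p = 0.503), Vldlr at -0.11 with its other probe sets at -0.0023 and 0.02, and Clu, the chaperone clusterin, at 0.02. Of 6 genes for degradation or binding of amyloid beta 2 were higher, with Thop1 at 0.25 (SE 0.13) and the insulin-degrading enzyme gene Ide at -0.07. In the endocytosis list 4 of 7 were higher, with Bin1, an amphiphysin that bends membranes, at 0.12 and the clathrin adaptor gene Ap2a2 at -0.07. Tau and its kinases were lower in 5 of 8, with Cdk5r1, the activator of the kinase CDK5, at -0.17, Mark2 at 0.09 and Mapt, encoding tau, at -0.04, and other Mapt probe sets at -0.07 and 0.03. Cdk5r1 was at -0.02 with the hexokinase gap as a covariate, at -0.11 without spatial learning replicate 6 and at -0.09 without the 3 arrays high in choroid plexus or meningeal markers, and Mark2 was at 0.05 without control task replicate 2 and at 0.16 without those 3 arrays. Other secretase substrates split 4 and 4, with Ncam1 at -0.15 and Notch1 at 0.07 on both its probe sets. With the hexokinase gap as a covariate Lrp1 was at 0.03, Vldlr at -0.05, Sorcs2 at -0.06 and Kat5 at 0.09. Thop1 was at 0.16 without control task replicate 6, and Bin1 was at 0.06 without the 3 arrays high in choroid plexus or meningeal markers.

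**Figure D5:**
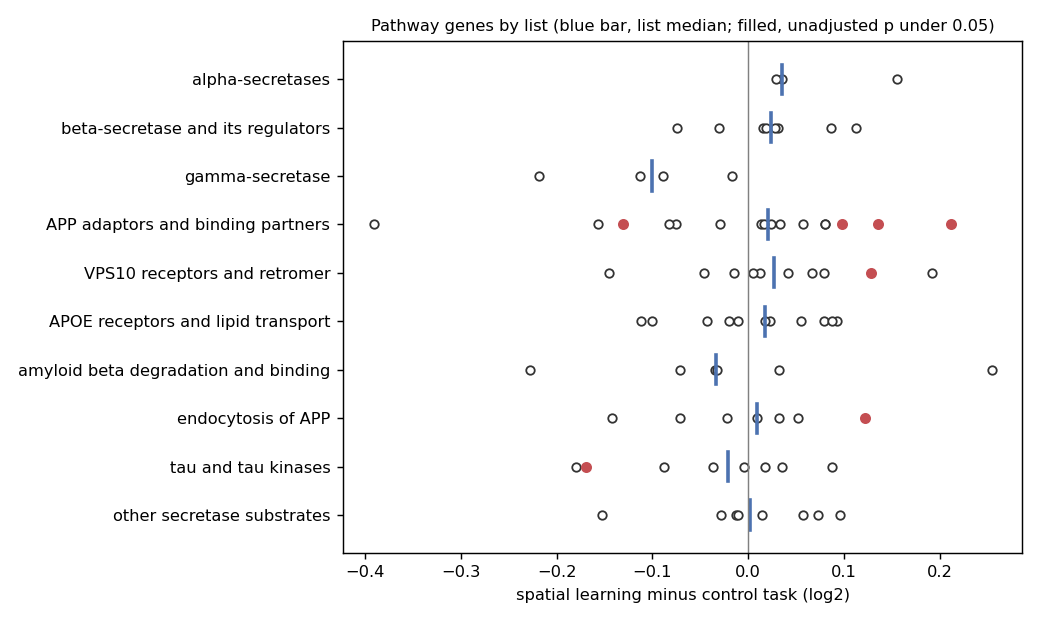
Difference, spatial learning minus control task (log2), of the 81 tested pathway genes in 10 lists, 1 point per gene, filled for an unadjusted p under 0.05, with a blue bar at the list median. The 4 tested genes of the gamma-secretase list lie below 0 and the 3 of the alpha-secretase list above it, some close to 0. None of these passed the adjusted threshold, nor did any other gene shown, and 55.6% of all named genes were higher.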

How the data were processed

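The authors' deposited values are log2 probe set summaries of 12 arrays in 1 table. Per the submitters' processing notes they were made with GCRMA, which corrects background from probe sequence, normalizes between arrays and summarises probes. Its version and settings are not given in these sources. The log2 scale was settled from the range, 0.134 to 14.8. GCRMA compresses differences of dim probe sets and hides a change in total RNA. The sample titles gave each group and replicate number and call each array a biological replicate. They name no batch.

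Probe sets were named from the platform annotation, 12783 with 1 symbol, 312 with several and 2771 with none, and 0 symbols needed updating against the GRCr8 gene table. Probe sets with a mean of at least 4 over all arrays entered a 2-sided limma fit (version 3.58.1, R 4.3.3) on group alone, with lmFit and a trended eBayes. Its p-values were adjusted over all 9610 by the Benjamini-Hochberg method. Exact permutation tests on all arrays used the 924 arrangements of 6 of 12 arrays (scipy 1.17.1). Those with arrays left out used all arrangements of the arrays kept, which are fewer. On simulated data for this comparison with 9610 probe sets, 80% of 100 probe sets changed by 0.5 and 100% of 100 changed by 1 were recovered, with 12 unchanged ones called. The simulated noise was normal and independent between probe sets, and no change under 0.5 was tried. Differences of the tested member probe sets were smaller, at -0.31 to 0.26, so these shares do not give the power for them.

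The members and gene lists were chosen with earlier results of these data known. Named were all member probe sets, the 2 genes of smallest p in each pathway list with Adam10, Clu, Lrp1 and Mapt, and the 3 most alike genes of each member. The retromer core genes were added after their values were seen. Alternatives changed the filter, variance model, normalization, covariate, replicate block and arrays used.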

Additional observations from a re-analysis of the deposited data

Results flagged for a closer look

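Of 32 groups of 6 values examined (15 member probe sets and the Sorl1 mean, in both groups), 10 held an array that stood apart from the nearest other by a larger share of the group's range than Dixon's 95% critical value for 6 samples. Chance gives about 1 in 20, but over all 9610 tested probe sets the share was 13.8% in the spatial learning group and 12.5% in the control task group, and probe sets of the same gene are not independent. Control task replicate 4 stood apart at 5.16 for Bace1, the next control being at 4.15, and at 8.09 for Aplp2 1383096_at, the next being at 7.45. Control task replicate 5 was lowest for Sorl1 1386269_x_at at 5.11, for Sorl1 1386268_at at 2.95, for the Sorl1 mean at 8.53 and for Apoe 1371288_at at 4.55. Spatial learning replicate 6 was lowest for the Sorl1 mean at 8.70, the next array being at 8.92. Spatial learning replicate 5 was highest for Sorl1 1386268_at at 3.15 and lowest for Psen2 at 3.30, and control task replicate 2 was lowest for Psen2 at 3.47.

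Over these probe sets, the same measure singled out spatial learning replicate 5 in 4.91%, control task replicate 6 in 3.74%, control task replicate 5 in 2.74% and control task replicate 4 in 2.15%, and each of the other arrays in 1.16% to 2.16%. The cause of these gaps was not tested.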

How the results depend on the processing

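Outside Sorl1, which carries no test, 0 member probe sets and 0 pathway genes passed under any alternative run. The Sorl1 mean difference, given as a description since this contrast chose Sorl1, was 0.12 (without control task replicate 5) to 0.21 (without spatial learning replicate 6) when 1 array was left out. It was 0.11 with the brightest probe set of each sequence entry, an alternative added after the data were seen. Without the 3 arrays high in choroid plexus or meningeal markers 5 of all probe sets passed. When 1 array was left out 0 to 3 passed (3 without control task replicate 6). Among them were 0 members outside Sorl1 and 0 pathway genes. Signs near 0 turned. With the hexokinase gap as a covariate, which nearly separates the groups, App 1371571_at was at -0.029, Aplp2 1388121_at at -0.067 and Clu at -0.014. Without the 3 arrays Clu was at -0.043. Leaving out 1 array gave -0.00080 to 0.032 for App 1371571_at, -0.072 to 0.0011 for Aplp1, -0.028 to 0.040 for Aplp2 1388121_at and -0.011 to 0.045 for Clu. The changes of the gap between probe sets ran from 0.036 to 0.095 for App, from -0.37 to -0.18 for Aplp2 and from 0.06 to 0.11 for Apoe when 1 array was left out, and Aplp2 stood at -0.39, no longer past the threshold, without the 3 arrays. No pairing by replicate number was seen in the values. Same-numbered arrays correlated at -0.17 to 0.08 in their deviations, and 1 of 6 spatial learning arrays correlated best with its own number. The titles do not say whether equal numbers were paired. With the replicate block 0 probe sets passed and the Sorl1 mean difference was 0.17. Dim probe sets, among them those of Bace1 and Psen2, limit what could be seen of small changes. The causes were not tested.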
